A study of Mus musculus with 4 samples.

Results

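Potassium channel genes were taken as all genes whose mouse symbol begins with Kcn followed by a letter. On the arrays 98 such genes were found, of 21762 genes that could be named through a RefSeq or Ensembl transcript. For a gene with several probes the brightest was used. Of the 98 genes, 49 (50%) were well above background on all 4 arrays, compared with 14295 (65.7%) of all named genes. A further 7 were well above background on some arrays and 42 on none. The 98 genes comprised 40 genes of the voltage-gated families (pore-forming subunits and the modifiers that join them), 15 inward rectifiers, 14 tandem-pore (K2P) channels, 12 genes of calcium- or sodium-activated channels, 12 auxiliary subunits, and 5 genes that do not encode a channel subunit (Kcnrg, Kcnq1ot1 and 3 antisense transcripts).

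The samples were hearts of male C57BL/6J mice after transverse aortic constriction (TAC), in which a band around the aorta raises the pressure load on the left ventricle, or after a sham operation. The study set 2 weeks as its stage of hypertrophy and 8 weeks as its stage of failure. There were 4 conditions (sham at 2 weeks, TAC at 2 weeks, sham at 8 weeks and TAC at 8 weeks) with 1 microarray each, and each array carried RNA pooled from several mice, with no transgene or deletion given for any group. By the labels the mice were 10 weeks old in the earlier and 16 weeks old in the later groups, whereas the methods of the study give another age at surgery. With 1 array per condition the spread between mice or pools was not measured and no p-value was computed. Each difference below is therefore a ratio of 2 pools of RNA.

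Potassium channels carry the outward currents that repolarise the heart muscle cell and set its resting potential. In the mouse ventricle a fast transient outward current, built from Kcnd subunits with the accessory subunit Kcnip2, and several delayed rectifier currents, built from Kcna5 and others, end the short action potential. Inward rectifiers hold the resting potential, couple it to acetylcholine in the atrium, or couple it to the energy state of the cell. Lower expression of several of these genes and a longer action potential are textbook features of the hypertrophied and failing heart.

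Values below are relative signals, that is, the processed signal of a probe divided by the 75th percentile of its array, which lay between 206.5 and 248.5. The share of probes well above background ran from 54.7% to 58.5% over the arrays, and no spot was saturated. Of the 98 members, 95 were read from 1 spot per array. Among 302 probes with several spots, the log2 ratio between a pair of spots on one array had an SD of 0.155, which was 0.284 for probes with a relative signal under 0.25. The 2 sham pools gave a second yardstick. Among all 14295 measured genes the central 95% of their log2 ratios lay between -0.44 and 0.49, between -0.35 and 0.37 for genes with a mean relative signal of 0.25 or more, and between -0.68 and 0.77 for dimmer genes. This spread includes any difference between the 2 sham time points. The labels were borne out by genes that are known to be raised by pressure overload: on the log2 scale Nppa was higher after TAC by 1.84 at 2 weeks and 2.65 at 8 weeks, and Myh7 by 2.71 and 3.69.

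Potassium channel genes were more often lower than higher after TAC. At 2 weeks 30 of the 49 measured members (61.2%) lay below their sham, compared with 51.6% of all measured genes, and at 8 weeks 38 (77.6%) did, compared with 51.7%. The median log2 change was -0.17 at 2 weeks and -0.22 at 8 weeks, compared with -0.01 at either time over all measured genes. Both times together, 27 members (55.1%) lay below sham at 2 and at 8 weeks, against 36.6% of all measured genes, and 8 (16.3%) lay above sham at both, against 33.3%. The changes of the 49 members at the 2 times, which share no array, correlated with a Pearson r of 0.71 and a Spearman rho of 0.63 across genes, compared with 0.59 and 0.54 across all measured genes. Genes are not independent replicates, and the points of one time share the same 2 arrays, so these coefficients are descriptions.

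At 2 weeks no member was more than 2-fold higher, where 0.895% of all measured genes were, and 1 member, Kcnv2, was more than 2-fold lower, where 0.476% of all genes were. At 8 weeks again no member was more than 2-fold higher (1.75% of all genes), and 5 members (10.2%) were more than 2-fold lower (0.832% of all genes). These were Kcna6, Kcnd2, Kcnj3, Kcnt1 and Kcnv2. At a threshold of 1.5-fold, 1 member was higher at 2 weeks (Kcne4, with 4.09% of all genes) and 6 (12.2%) were lower (2.42% of all genes). At 8 weeks 1 member was higher by more than 1.5-fold (Kcne3, with 5.23% of all genes) and 10 (20.4%) were lower (3.74% of all genes). Lower by more than 1.5-fold at both times were 5 members, Kcnd2, Kcnip2, Kcnj3, Kcnj5 and Kcnv2. After normexp background correction, which shrinks the ratios of dim probes, 3 of these (Kcnip2, Kcnj5 and Kcnv2) passed 1.5-fold at both times, Kcnd2 and Kcnj3 passed it at 8 weeks only, and no member was more than 1.5-fold higher at either time.

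**Figure D1:**
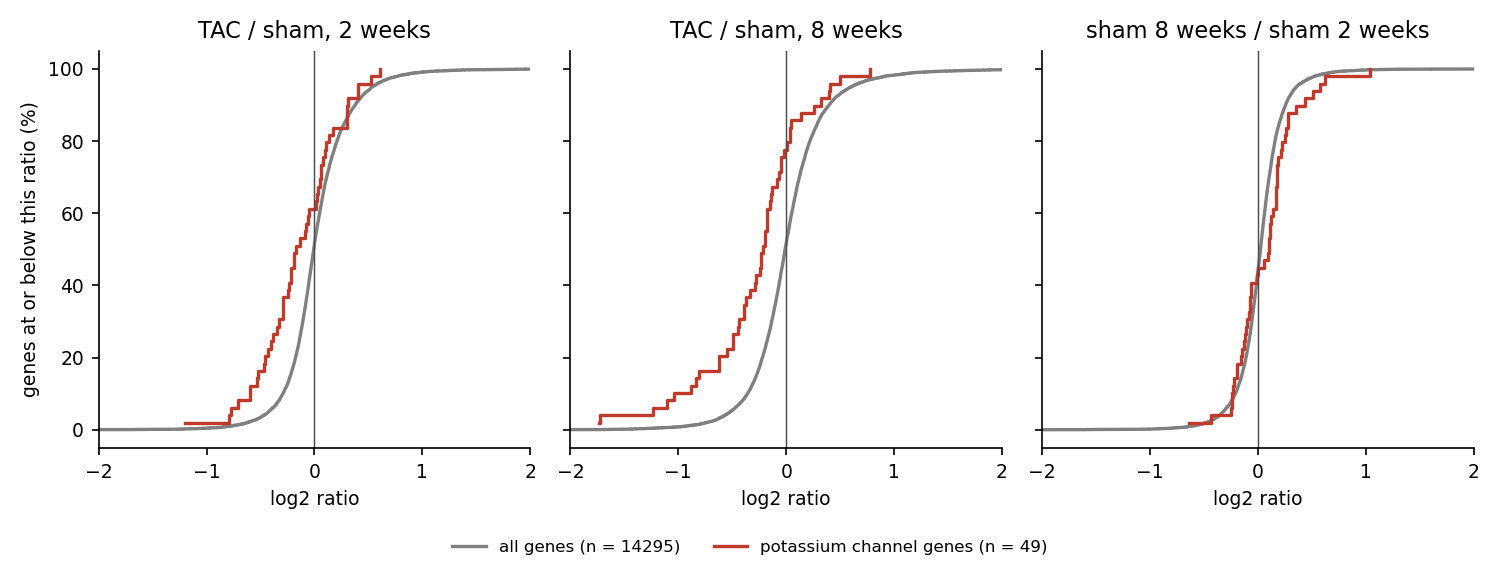
Cumulative distributions of the log2 ratio (x axis) for the 49 potassium channel genes (red) and all 14295 measured genes (grey), as the percent of genes at or below each ratio, for TAC over sham at 2 weeks, at 8 weeks, and for sham at 8 weeks over sham at 2 weeks. The red line lies left of the grey line below 0 in both TAC panels, with member medians of -0.17 and -0.22.

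**Figure D2:**
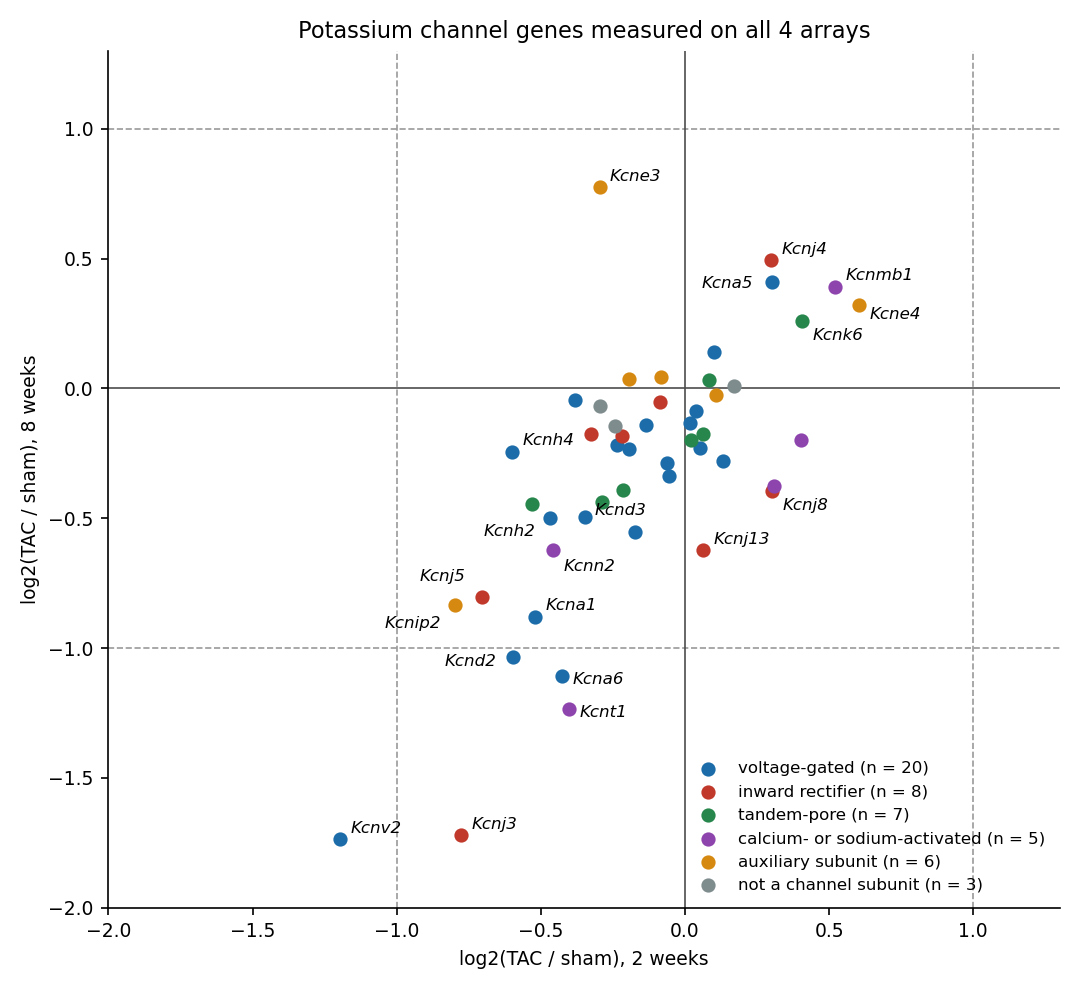
Log2 ratio of TAC over sham at 2 weeks (x axis) against 8 weeks (y axis) for each of the 49 measured members, coloured by channel class, with dashed lines at a 2-fold change. Kcnv2 and Kcnj3 are farthest to the lower left, and no point lies beyond 2-fold on the upper or right side.

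The promoter sequences of 4 members are shown because the products of these genes assemble in pairs, Kcnd2 with Kcnip2 in the transient outward current and Kcnj3 with Kcnj5 in the acetylcholine-activated channel, and because all 4 were lower after TAC at both times. Each is the 250 bases before the annotated transcription start in RefSeq on build GRCm38.p6, written 5′ to 3′ on the strand of the gene. Capitals mark matches on either strand to the GC box GGGCGG. The windows are chr6:21215096-21215345 on the plus strand for Kcnd2, chr19:45816064-45816313 on the minus strand for Kcnip2, chr2:55435720-55435969 on the plus strand for Kcnj3 and chr9:32344345-32344594 on the minus strand for Kcnj5.
Kcnd2: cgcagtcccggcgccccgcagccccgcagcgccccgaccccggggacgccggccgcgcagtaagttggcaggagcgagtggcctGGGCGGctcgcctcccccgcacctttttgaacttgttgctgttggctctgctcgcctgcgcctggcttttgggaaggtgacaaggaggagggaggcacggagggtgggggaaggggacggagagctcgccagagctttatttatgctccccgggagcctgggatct
Kcnip2: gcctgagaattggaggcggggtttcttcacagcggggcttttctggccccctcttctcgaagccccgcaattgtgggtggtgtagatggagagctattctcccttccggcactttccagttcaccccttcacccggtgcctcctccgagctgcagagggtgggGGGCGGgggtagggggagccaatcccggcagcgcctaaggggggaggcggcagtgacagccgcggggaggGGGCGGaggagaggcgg
Kcnj3: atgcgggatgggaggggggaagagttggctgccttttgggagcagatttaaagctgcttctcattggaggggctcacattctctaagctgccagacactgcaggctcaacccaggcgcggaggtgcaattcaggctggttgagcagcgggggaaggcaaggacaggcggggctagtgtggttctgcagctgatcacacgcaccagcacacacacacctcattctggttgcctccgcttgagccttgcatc
Kcnj5: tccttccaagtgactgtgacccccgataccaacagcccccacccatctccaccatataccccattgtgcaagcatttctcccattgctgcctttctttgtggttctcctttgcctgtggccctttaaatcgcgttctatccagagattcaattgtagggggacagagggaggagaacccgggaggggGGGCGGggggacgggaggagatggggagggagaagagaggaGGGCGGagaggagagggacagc
The Kcnd2 window held 1 match to the GC box, the Kcnip2 and Kcnj5 windows held 2 each, and the Kcnj3 window held none. Their GC content was 68.8% for Kcnd2, 66.8% for Kcnip2, 58.4% for Kcnj3 and 58.0% for Kcnj5. No window of the 4 held the letters TATAAA (the TATA box), the E-box CACGTG, the GATA motif AGATAA or the AP-1 motif TGANTCA on either strand. RefSeq windows were given for 72 of the 98 members (97 windows, since some genes have several starts) and for 34 of the 49 measured ones. The GC box was in 44.3% of the members' windows and in 32.7% of all 32851 windows, and TATAAA was in 3.09% and 12.4%. CACGTG was in 6.19% of the members' windows against 6.02% of all, AGATAA in 3.09% against 9.99%, and TGANTCA in 4.12% against 6.75%. The median GC content was 58.8% in the members' windows and 52.4% in all windows. Kcnv2, Kcna1, Kcnt1 and Kcnj14 were not among them.

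Genes of the transient outward current differed among themselves after TAC. Of 5 genes on this list, all measured on every array, Kcnd2 and Kcnip2 were lower by more than 1.5-fold at both times and the others were not. The median log2 change of the 5 was -0.35 at 2 weeks and -0.50 at 8 weeks. Kcnd2, a pore-forming subunit of the fast component, had a relative signal of 2.21 in sham and 1.46 in TAC hearts at 2 weeks, and 2.38 in sham and 1.16 in TAC hearts at 8 weeks. Both TAC pools lay below both sham pools. It was 1.51-fold lower at 2 weeks (log2 change -0.60) and 2.05-fold lower at 8 weeks (-1.04), while the 2 shams differed by 0.11. Kcnip2, the accessory subunit that brings Kcnd channels to the membrane and shapes their gating, read 2.31 in sham and 1.33 in TAC at 2 weeks, and 2.81 in sham and 1.58 in TAC at 8 weeks. Its ratio was nearly the same at the 2 times, 1.74-fold lower (-0.80) and 1.78-fold lower (-0.83).

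Kcnd3, the other Kcnd subunit of the fast current, stood at 3.14 in sham and 2.46 in TAC at 2 weeks and at 3.37 and 2.39 at 8 weeks. Its TAC pools were below both shams, by 1.27-fold (-0.35) and 1.41-fold (-0.50). Kcnd1, another gene of this family, was not lower: its relative signal was 4.25 and 4.55 at 2 weeks and 4 and 4.41 at 8 weeks for sham and TAC. Kcna4, the subunit of the slowly recovering transient current, read 10.8 in sham and 10.9 in TAC at 2 weeks, and 12.1 and 11 at 8 weeks. Changes of Kcnd1 (0.10 and 0.14) and Kcna4 (0.02 and -0.13) were within the range of the sham-to-sham ratios.

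**Figure D3:**
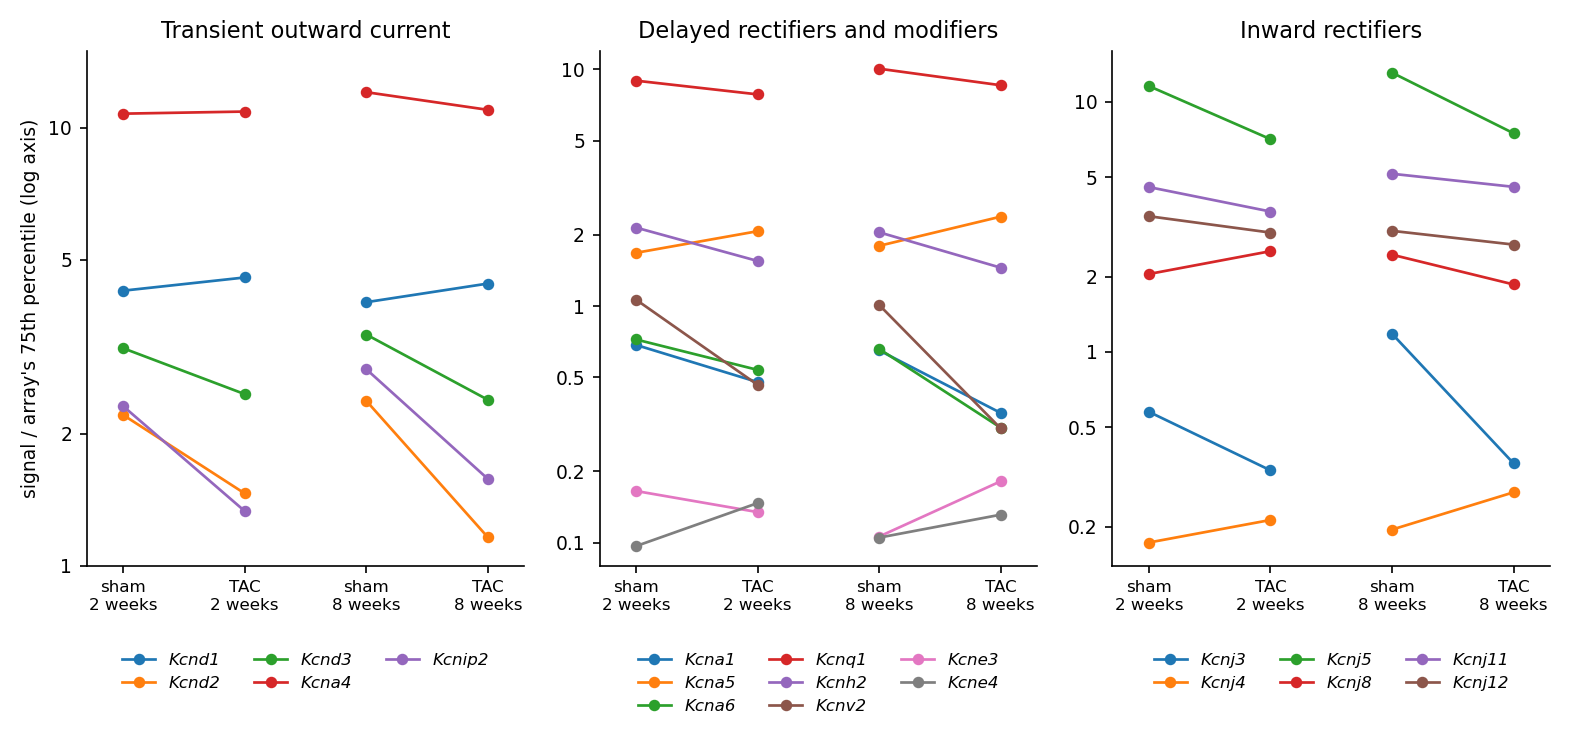
Relative signal (signal over the 75th percentile of the array, log axis) in the 4 pools for genes of the transient outward current, the delayed rectifiers and their modifiers, and the inward rectifiers, with lines joining the sham and TAC pool of one time. Different genes are read by different probes and their heights are not comparable. Kcnd2, Kcnip2, Kcnv2, Kcnj3 and Kcnj5 slope down at both times, from 2.38 to 1.16 for Kcnd2 at 8 weeks, and Kcna4 and Kcnd1 are nearly level.

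The delayed rectifier list held 12 genes, of which 9 were measured on all arrays. At 2 weeks 1 of the 9 was more than 1.5-fold lower and 1 higher. At 8 weeks 3 were lower and 1 higher. Kcnv2, a subunit that forms no channel alone and modifies other voltage-gated subunits, gave the lowest ratio of any measured potassium channel gene at either time. Its relative signal was 1.06 in sham and 0.465 in TAC at 2 weeks, and 1.01 in sham and 0.304 in TAC at 8 weeks. That is 2.29-fold lower at 2 weeks (-1.20) and 3.33-fold lower at 8 weeks (-1.73), with the 2 shams within 0.07 of each other.

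Kcna5, the pore of the rapidly activating delayed rectifier, was above sham. It read 1.68 in sham and 2.07 in TAC at 2 weeks, and 1.80 and 2.39 at 8 weeks (0.30 and 0.41). Its other probe gave 0.11 and 0.16, so the size depends on the probe. Of these 4 changes only the 0.41 lay outside the sham-to-sham range of genes this bright (-0.35 to 0.37). Kcnh2, the pore of the rapid component IKr, was at 2.15 and 1.55 at 2 weeks and at 2.05 and 1.45 at 8 weeks, lower by 1.38-fold and 1.41-fold. Kcnq1, the pore of the slow component IKs, was at 8.97 and 7.85 at 2 weeks and 10.1 and 8.58 at 8 weeks. The Kcnq1 changes of -0.19 and -0.23 were repeated by its other probe within 0.02 and lay inside the sham-to-sham range. Kcne1, the classical partner of Kcnq1, and Kcne2, a partner of Kcnh2, were not well above background on any array.

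Kcna1 and Kcna6, which encode channels best known from axons, were lower at both times. Kcna1 had a relative signal of 0.685 in sham and 0.477 in TAC at 2 weeks and of 0.650 and 0.353 at 8 weeks. Kcna6 had 0.722 and 0.537 at 2 weeks and 0.659 and 0.306 at 8 weeks. The shams of each gene agreed closely and the 8-week TAC pool was the lowest, 1.84-fold below sham for Kcna1 (-0.88) and 2.15-fold for Kcna6 (-1.11). The other Kcna6 probe was not well above background on any array. Kcna1, Kcna5 and Kcna6 lie in one cluster in the RefSeq annotation, with only lncRNA genes between Kcna5 and Kcna1, and Kcna5 was not lower. Nerve and Schwann cell markers were lower in the same pools. Sox10, a Schwann cell factor, differed by -0.43 and -0.39, and S100b by -0.75 and -0.43. Of the 6 markers on this list 5 were measured, all below sham at both times, and the summed relative signal of the list was 5.13 in sham and 4.12 in TAC at 2 weeks and 5.28 and 4.17 at 8 weeks. The part of these cells in the Kcna1 and Kcna6 values was not tested. In such RNA of heart tissue, fewer cells of a type and less RNA per cell cannot be told apart.

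Of all 20 measured genes of the voltage-gated families, those described above included, 14 lay below sham at 2 weeks and 18 at 8 weeks, with medians of -0.18 and -0.26. Kcnh4, of the ether-à-go-go-like family, was 1.52-fold lower at 2 weeks (2.67 in sham, 1.76 in TAC) and 1.18-fold lower at 8 weeks (1.97 and 1.67). Its 2 shams differed by -0.44, so both TAC pools lay below both shams by a margin that depended on the sham chosen. Kcna7, a muscle-enriched Kcna gene, differed by -0.24 and -0.22.

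Inward rectifier genes were mostly below sham. Of 15 genes 8 were measured on every array, with 5 of these below sham at 2 weeks and 7 at 8 weeks, and 2 were more than 1.5-fold lower at 2 weeks and 3 at 8 weeks, and none higher. These were Kcnj3 and Kcnj5 at both times and Kcnj13 at 8 weeks (0.194 in sham and 0.126 in TAC, -0.62). The Kcnj13 ratio lay inside the sham-to-sham range of dim genes, and was 0.06 at 2 weeks. Kcnj5, a subunit of the acetylcholine-activated channel, had a relative signal of 11.6 in sham and 7.09 in TAC at 2 weeks and of 13.1 and 7.49 at 8 weeks. The TAC pools lay well under both shams, 1.63-fold (-0.71) and 1.75-fold (-0.80) lower. Kcnj3, its partner in that channel, read 0.577 in sham and 0.336 in TAC at 2 weeks, and 1.18 and 0.359 at 8 weeks with the brightest probe. The 2 TAC pools were alike, whereas the 8-week sham was 2.05-fold above the 2-week sham. A second Kcnj3 probe gave 0.686 and 0.406 at 2 weeks and 0.712 and 0.343 at 8 weeks, with shams 0.05 apart. On the log2 scale Kcnj3 was therefore lower by -0.78 and -1.72 with one probe and by -0.76 and -1.06 with the other, and the size at 8 weeks and the difference between the shams depended on the probe.

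Both subunits of the acetylcholine-activated channel are known to be abundant in the atrium, and atrial markers also differed between the pools. Myl7, an atrial myosin light chain, was well above background only in TAC at 2 weeks (0.0778) and sham at 8 weeks (0.170), and was at least 3.64-fold lower in TAC than in sham at 8 weeks. Sln, an atrial regulator of the calcium pump, read 0.0773 and 0.0929 at 2 weeks (0.26) and 0.120 in sham at 8 weeks. It was at least 2.55-fold lower in TAC at 8 weeks. Bmp10 was well above background only in TAC at 2 weeks (0.0641), at least 1.07-fold above its sham. Of the 5 atrial markers 2 were measured on every array: Myl4 differed by -0.01 and -0.52, and Dkk3, which is not limited to the atrium, by 1.63 and 1.17. The summed relative signal of the list was 3.59 and 4.31 in sham and TAC at 2 weeks and 4.98 and 4.57 at 8 weeks. This sum mixes opposite changes. Dkk3 read 0.327 and 1.01 in sham and TAC at 2 weeks and 0.791 and 1.78 at 8 weeks. Myl4, the brightest of the list, read 3.08 and 3.06 and then 3.85 and 2.69. The part of atrial tissue in the Kcnj3 and Kcnj5 values was not tested.

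**Figure D4:**
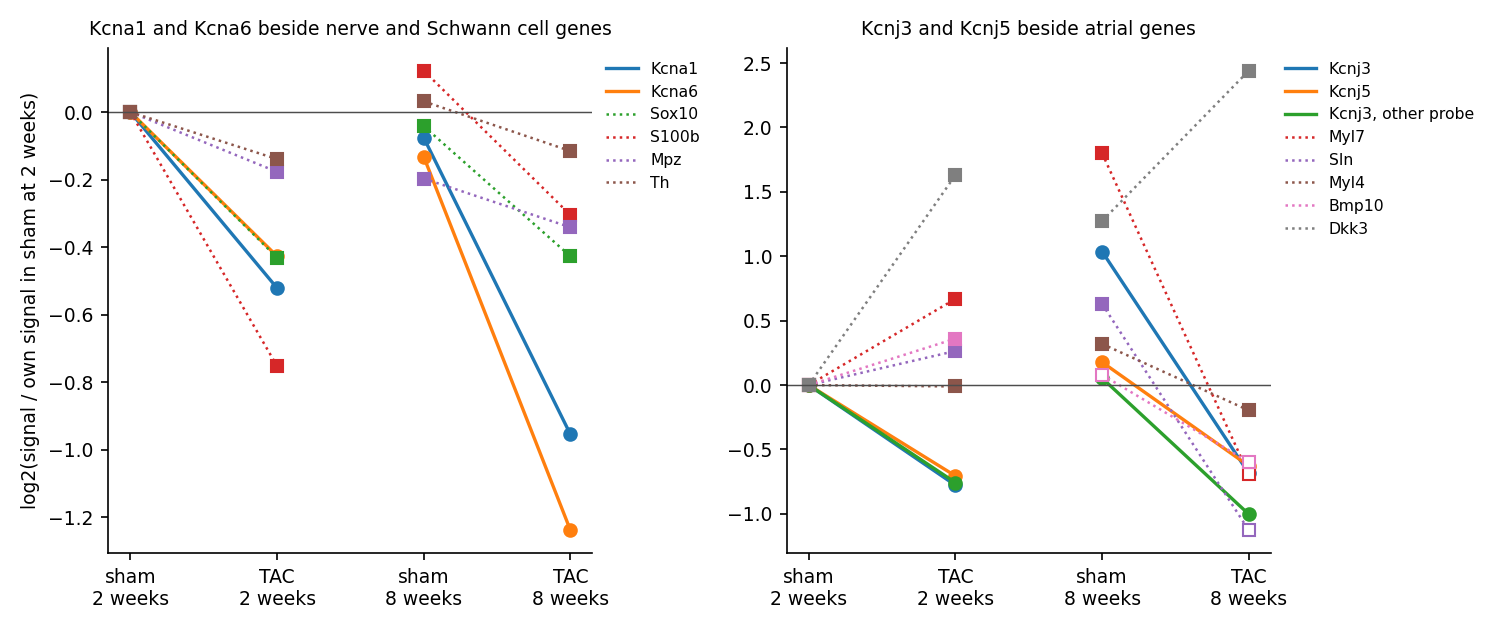
Log2 signal relative to the same gene's signal in sham at 2 weeks, for Kcna1 and Kcna6 with nerve and Schwann cell genes (left) and for Kcnj3, its other probe and Kcnj5 with atrial genes (right), with open symbols for values that were not well above background. Sox10 and S100b lie below 0 in both TAC pools as Kcna1 and Kcna6 do, and Kcnj3 and Kcnj5 lie at -0.78 and -0.71 in TAC at 2 weeks (Myl7 and Bmp10 were not well above background in sham at 2 weeks, where all symbols overlap at 0).

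The strong inward rectifiers that hold the resting potential were read unevenly. Kcnj12 was measured throughout, with 3.49 and 3 at 2 weeks and 3.05 and 2.69 at 8 weeks, changes of -0.22 and -0.18. Kcnj4 was dimmer and higher after TAC, at 0.173 and 0.213 and at 0.195 and 0.275 (0.30 and 0.50), inside the sham-to-sham range of dim genes, and its 2-week value was -0.03 after normexp background correction. Kcnj2, the best known gene of this current, had 0.139 in sham and 0.0958 in TAC at 2 weeks and 0.104 in sham at 8 weeks. It was not well above background in TAC at 8 weeks, at least 2.23-fold below its sham. Kcnj11, the pore of the ATP-sensitive channel of heart muscle, was at 4.56 and 3.64 at 2 weeks and 5.16 and 4.57 at 8 weeks, and both of its probes gave changes between -0.35 and -0.16. Kcnj8, the vascular pore of that channel type, was above sham at 2 weeks (2.05 and 2.53) and below it at 8 weeks (2.45 and 1.86). Pericyte markers, 4 of 4 measured, had a summed relative signal of 26.4 and 33.8 at 2 weeks and 26.8 and 28.6 at 8 weeks, and their part in the Kcnj8 values was not tested.

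Tandem-pore channels, which carry background current, differed little from sham. Of 14 genes 7 were measured and none passed 1.5-fold at either time; their median changes were 0.02 and -0.20. Kcnk3, an acid-sensitive background channel of the heart, had a relative signal of 33.4 in sham and 28.8 in TAC at 2 weeks and of 36.0 and 27.5 at 8 weeks (-0.22 and -0.39). Both TAC pools were below both shams, the 8-week ratio just beyond the sham-to-sham range. Kcnk6 was higher, at 1.48 and 1.96 at 2 weeks and 1.67 and 2.00 at 8 weeks (0.41 and 0.26). Kcnk15 differed by -0.53 and -0.45, inside the sham-to-sham range of dim genes. Kcnk13 differed by 0.08 and 0.03. Kcnk1 and Kcnk2, a stretch-sensitive channel, were not well above background on any array.

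Calcium- and sodium-activated channel genes were mostly dim, with 5 of 12 measured. Kcnn2, a small-conductance channel gated by calmodulin, was the measured member printed in 10 spots per array, which gives its values a within-array error. Its relative signal was 1.04 in sham and 0.757 in TAC at 2 weeks and 1.6 in sham and 1.04 in TAC at 8 weeks. The SD of the log2 signal over the 10 spots was between 0.06 and 0.10 on each array, and the spots of TAC and sham did not overlap at either time. Kcnn2 was lower after TAC by 1.37-fold (-0.46) and 1.54-fold (-0.62), but the shams themselves differed by 0.62, and TAC at 8 weeks stood at the level of sham at 2 weeks. The spots measure the print and the hybridisation and not the spread between pools. Kcnt1, a sodium-activated channel, read 0.108 and 0.0818 at 2 weeks and 0.123 and 0.0522 at 8 weeks, 2.35-fold lower at the later time. It was near the lowest signal that counts as well above background, and its 8-week change went from -1.23 to -0.42 after normexp correction.

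Kcnmb1, the smooth muscle beta subunit of the large-conductance channel, was higher, with 0.0847 and 0.121 at 2 weeks and 0.127 and 0.166 at 8 weeks. The 2-week TAC pool and the 8-week sham were alike, and the sham difference (0.58) exceeded both TAC changes (0.52 and 0.39). Smooth muscle markers, 4 of 5 measured, had a summed relative signal of 45.7 and 50.9 at 2 weeks and 46.8 and 44.2 at 8 weeks, and Lmod1 was not well above background on any array. Their median change was 0.18 and 0.22. At 8 weeks Cnn1, Tagln and Myh11 differed by 0.48, 0.25 and 0.19, while the brighter signal of Acta2, which weighs most in the sum, differed by -0.40. Their part in the Kcnmb1 values was not tested. Kcnma1, the pore of that channel, was well above background only in TAC at 2 weeks (0.0814).

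Auxiliary subunits other than Kcnip2 were close to sham or dim. Of 12 genes 6 were measured. Kcne4, which inhibits Kcnq1 channels, was 1.52-fold higher at 2 weeks (0.0967 and 0.147) and 1.25-fold higher at 8 weeks (0.105 and 0.131). Kcne3 was lower at 2 weeks and higher at 8 weeks by either of its probes: -0.30 and 0.78 with the brightest, -0.30 and 0.50 with the other. Its 8-week sham (0.106) was the lowest of the 4 pools and the 2-week sham stood at 0.165. Both genes read below a relative signal of 0.25, where spots of one probe spread most, and of these changes only the 0.78 of Kcne3 lay outside the sham-to-sham range of dim genes. Kcnip3 and Kcnab1, a cytoplasmic beta subunit, stayed within 0.19 of sham at both times, and Kcnab2 and Kcnab3 were not well above background on any array.

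Among the genes read on some arrays only, Kcnj14 was higher after TAC by both of its probes. This inward rectifier had a brightest-probe signal of 0.100 in TAC at 2 weeks, 0.0668 in sham at 8 weeks and 0.548 in TAC at 8 weeks, and was not well above background in sham at 2 weeks. At 8 weeks it was 8.20-fold above sham. That sham signal was near the lowest that counts as well above background on its array (0.0540). The 2-week difference was at least 1.68-fold in the same direction. The second probe was well above background only in TAC at 8 weeks (0.0844), at least 1.56-fold above its sham, so the size of the difference varied between the probes. Because its brightest probe was not well above background on 1 array, Kcnj14 is not among the 49 genes counted above. It is the only member more than 2-fold higher at 8 weeks when a gene needs to be well above background on the pair of arrays alone.

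For 3 other genes of this class, Kcnmb4, Kcnip4 and Kcnh7, the values rested on 1 array and 1 of 2 probes. Kcnmb4, a beta subunit of the large-conductance channel, was well above background only in TAC at 8 weeks (0.444), at least 8.22-fold above sham, and its other probe was not well above background on any array. Kcnip4 behaved likewise at a lower signal (0.0951), at least 1.76-fold above sham. Kcnh7, an erg-type channel, was well above background only in sham at 2 weeks, at 1.10, which is at least 22.8-fold above TAC, and its other probe was not well above background on any array. Kcnn4, with its single probe, was well above background only in TAC at 8 weeks (0.0758).

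**Figure D5:**
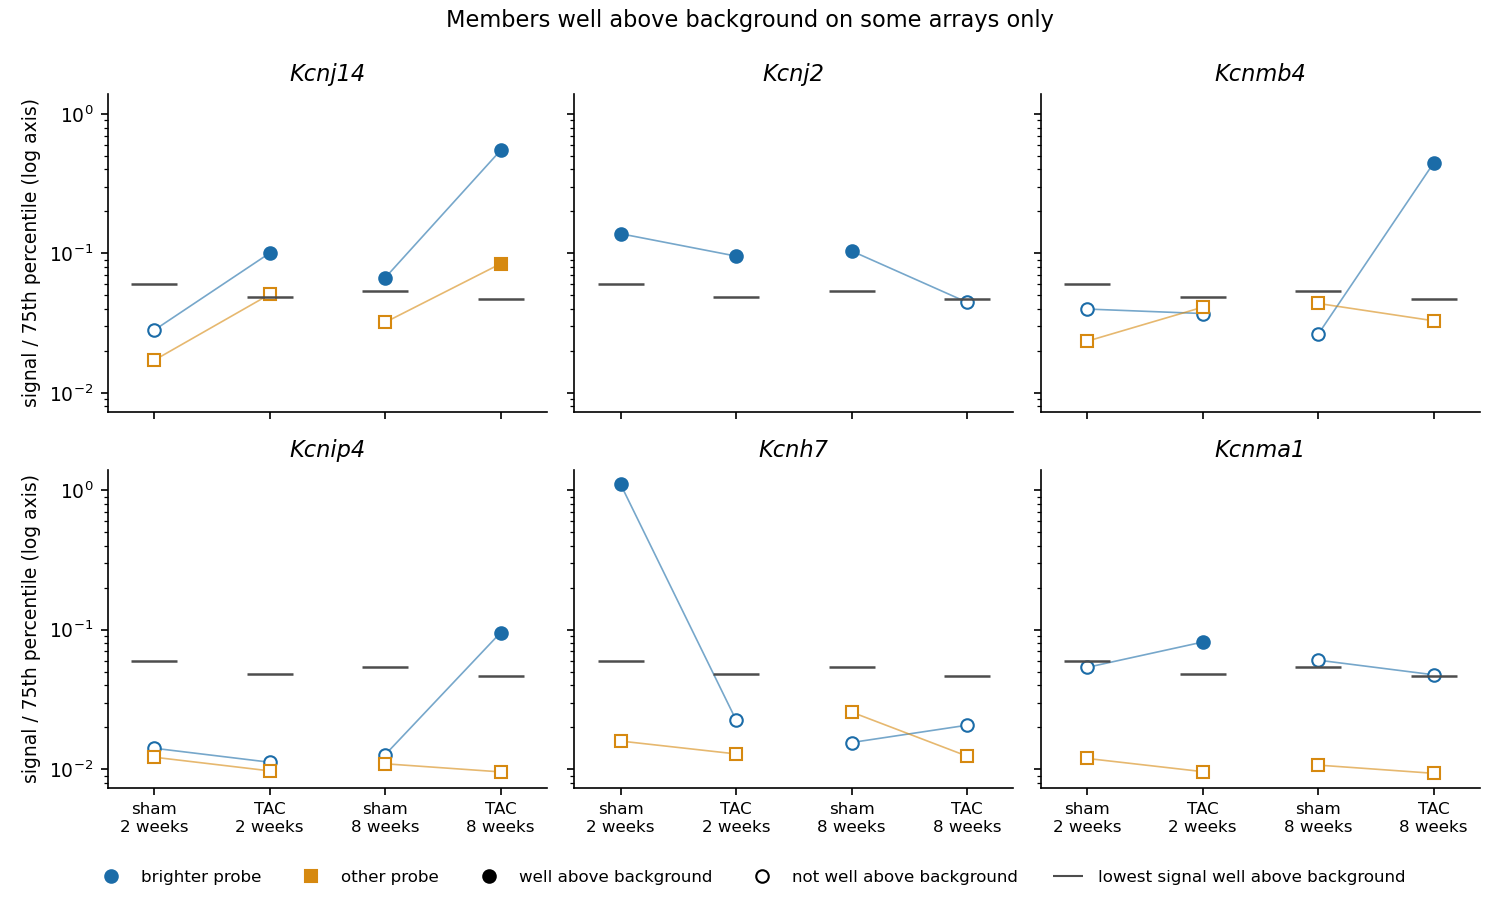
Relative signal (log axis) in the 4 pools of 6 genes that were well above background on some arrays only, for the brighter probe (blue circles) and the other probe (orange squares), with filled symbols where well above background and a dash at the lowest signal that was. Both Kcnj14 probes are highest in TAC at 8 weeks (0.548 and 0.0844), whereas Kcnmb4, Kcnip4 and Kcnh7 each have 1 high value on 1 of 2 probes.

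Few potassium channel genes passed the thresholds between the 2 sham pools. No member was more than 2-fold lower at 8 weeks (0.224% of all measured genes). Higher by more than 2-fold was 1 member (2.04%, against 0.322% of all genes), Kcnj3 by its brightest probe. Over 1.5-fold, 2 (4.08%) were higher, Kcnj3 and Kcnn2, against 1.56% of all genes. Lower was 1 member (2.04%), Kcne3, against 1.19% of all genes. All 5 measured genes of calcium- or sodium-activated channels were higher in sham at 8 weeks, by 0.18 to 0.62 with a median of 0.44. Of all measured genes 43.9% were lower in this comparison, and of the 49 members 42.9%. Among the 5 only Kcnn2 lay outside the sham-to-sham range at its signal level. The others were dim and lay inside the range of dim genes (-0.68 to 0.77). The median sham difference was 0.10 over the 49 members and 0.02 over all genes. The comparison of the shams shares an array with each TAC comparison, so a high or low sham enters 2 ratios: Kcnj3 differed between shams by 1.04 and between TAC and sham at 8 weeks by -1.72, Kcne3 differed by -0.64 and 0.78, and Kcnn2 by 0.62 and -0.62. Kcnd3os, an antisense transcript of the Kcnd3 locus, differed between shams by 0.51 at a dim signal and differed by 0.17 and 0.01 after TAC.

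Genes of partner proteins of these channels mostly lay close to sham. Of 21 genes on this list, 20 had a probe and 16 were measured, and none was more than 1.5-fold higher or lower at either time. Of all measured genes 4.09% were higher and 2.42% lower by this much at 2 weeks, and 5.23% and 3.74% at 8 weeks. The median was -0.04 at 2 weeks and -0.06 at 8 weeks. Abcc9, the sulphonylurea receptor that joins Kcnj11 and Kcnj8, was the lowest at 8 weeks, with relative signals of 11.6 and 9.11 at 2 weeks and 12.2 and 8.46 at 8 weeks (-0.34 and -0.52). Its 8-week change lay outside the sham-to-sham range of genes this bright (-0.35 to 0.37). Abcc8, the other receptor of that channel, differed by -0.29 and -0.17. Dpp6, a Kcnd partner, differed by 0.20 and 0.08. Irx3 and Irx5, transcription factors of which Irx5 is known to restrain Kcnd2 in the inner ventricular wall, differed by -0.21 and -0.20 and by -0.28 and 0.15, and differed between shams by -0.39 and -0.51. The sodium-potassium pump subunits Atp1b1, Atp1b2 and Atp1b3 and the pump regulator Fxyd1 differed by between -0.14 and 0.10.

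Heart muscle markers were themselves slightly lower after TAC, while markers of connective tissue and macrophages were higher. All 6 cardiomyocyte markers were measured, with a median change of -0.20 at 2 weeks and -0.32 at 8 weeks, from 0.16 and 0.23 for Actn2 to -0.42 and -0.49 for Pln, and Ryr2 at -0.63 was the lowest at 8 weeks. Their summed relative signal was 3872 and 3362 in sham and TAC at 2 weeks and 3663 and 3163 at 8 weeks. The 5 fibroblast markers had a median change of 0.89 and 0.75 and the 5 macrophage markers of 0.31 and 0.40. Kcnv2, Kcnip2, Kcnj3, Kcnj5 and Kcnd2 lay below every one of the 6 cardiomyocyte markers at either time. These 5 were picked as the members lowest at both times, so their place below the markers follows in part from that choice. The median change of all 49 measured members was -0.17 at 2 weeks and -0.22 at 8 weeks. Whether the share of heart muscle RNA differed between the pools was not tested, nor was its part in the changes of the channel genes.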

How the data were processed

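Total RNA of sham and TAC hearts, pooled over mice, was labelled with Cy3 and hybridised to 4 single-colour Agilent mouse expression arrays, all from 1 slide and 1 scan, which leaves no batch to test. The authors deposited the scanner output. Its processed signal is an intensity per spot after subtraction of background and spatial trend, without normalization between arrays. Agilent Feature Extraction is given as version 10.7.3.1 in the file headers and as 9.1 in the submitters' processing notes. The deposited files also hold other columns, flags per spot for signal well above background and for outliers. The series table is this intensity multiplied by one constant per array, as deposited. Here log2 of the processed signal minus the 75th percentile of the array over 55681 non-control probes was used, without outlier spots and averaged over spots of a probe. Of 26314 RefSeq or Ensembl transcript names 23667 were matched to a gene (RefSeq GRCm38.p6 and GENCODE), which named 21762 genes. The brightest probe by mean signal represented a gene. Members and gene lists were chosen with earlier results of these data known. Named genes were the fixed lists of cardiac currents, the 5 members with the largest change in the same direction at both times (each direction), the 5 with the largest difference between shams, those past 2-fold and those whose lower bound was past 2-fold; others are named where a count includes them. Some genes that these rules select are not reported here. A fold against an array on which the probe failed this flag is given as "at least", computed from whichever was larger there, its own signal or the smallest signal passing the flag. Alternatives were other normalizations, normexp with an offset of 50 in limma, the deposited table, other filters on dim probes, the mean of a gene's probes, and thresholds of 1.5-fold and 3-fold. The counting was tested on simulated data. Computations used Python 3.11.15 with numpy 2.4.6, pandas 2.3.3 and scipy 1.17.1.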

Additional observations from a re-analysis of the deposited data

Results flagged for a closer look

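For 4 measured members the log2 difference between TAC and sham had opposite signs at 2 and at 8 weeks, each beyond 0.155, the SD of the ratio between spots over all probes. Kcne3 differed from sham by -0.30 at 2 weeks and 0.78 at 8 weeks on the log2 scale. Kcnj8 differed by 0.30 and -0.40, Kcnn3, a small-conductance calcium-activated channel, by 0.31 and -0.38, and Kcnt2, a sodium-activated channel, by 0.40 and -0.20. Kcne3, Kcnn3 and Kcnt2 are dim, where that SD was 0.284, and the 8-week difference of Kcnt2 lay within it. Both differences of Kcnn3 and of Kcnt2, the 2-week difference of Kcne3 and the 2-week difference of Kcnj8 lay inside the central 95% of the ratios between the sham pools at their signal level (-0.68 to 0.77 for dim genes, -0.35 to 0.37 for brighter ones). With 1 pool per condition the difference between the times was not tested. Signs were opposite, at any size, for 14 measured members. Among the measured members 55.1% lay below sham at both times and 16.3% above sham at both. For all measured genes these shares were 36.6% and 33.3%, so opposite signs were not more common among the members. The share of all genes with opposite signs beyond 0.155 was not computed. The relative signal of Kcnn3 was 0.137 and 0.170 in sham and TAC at 2 weeks and 0.186 and 0.143 at 8 weeks, and that of Kcnt2 was 0.0797 and 0.105, then 0.0964 and 0.0841.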

How the results depend on the processing

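The median change of the members at 2 weeks, -0.17, stayed within the spot SD of 0.155 of its value under every alternative run. That limit is loose, since it is nearly as large as the median and describes single spots. Without normalization between arrays the 8-week median was -0.0499 where the median of all genes was 0.16, and 3 members were more than 2-fold lower. After normexp correction, whose offset shrinks the ratios of dim probes, no member (0) was more than 2-fold lower at 2 weeks, 2 were at 8 weeks (Kcnj3 and Kcnv2) and 0 were higher between the shams. With the mean of a gene's probes 0 were higher between the shams. With the filter on the pair of arrays alone 1 was higher at 8 weeks. Requiring a positive and significant signal instead of one well above background gave 2 higher and 4 lower of 65 members at 2 weeks (3.08% and 6.15%, where 2.37% and 1.26% of all genes passed), 2 and 11 at 8 weeks (3.08% and 16.9%, against 2.81% and 2.22%), and 4 and 2 between the shams (6.15% and 3.08%, against 1.72% and 1.11%). No filter gave 5 and 4 of 98 (5.10% and 4.08%, against 3.61% and 2.15%), 5 and 13 (5.10% and 13.3%, against 3.45% and 4.04%), and 7 and 3 (7.14% and 3.06%, against 3.21% and 1.98%). At 1.5-fold the counts were 1 and 6 at 2 weeks and 1 and 10 at 8 weeks, which normexp correction made 0 and 3 (1.32% and 0.895% of all genes) and 0 and 6 (3.13% and 1.32%). At 3-fold 0 members were lower at 2 weeks (0.133% of all genes) and 2 at 8 weeks (4.08%, against 0.154%). Among 696 recomputed changes of single members, 647 moved by less than the spot SD and 49 by more, 29 without normalization and 19 after normexp; none of those past 2-fold changed sign. No paired analysis was possible because each condition has 1 array and the replicate number is the same for all. With 1 pool per condition and 1 spot for most probes, no error beyond the spread of spots can be given, and it is largest for dim probes.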
